A study of Mus musculus with 2 samples.

Results

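Isolated peaks of 5-hydroxymethylcytosine (5hmC) in mouse kidney DNA were described here. They are the autosomal peaks of the authors' list whose midpoint lies more than 50 kb from the midpoint of both the previous and the next peak on the chromosome. The first and last peak of each chromosome, 38 in all, were left out of the rule and stand with the other peaks. The rule found 2478 isolated peaks, or 2.68% of the 92319 autosomal peaks. The whole list, which adds chromosome X, holds 92654. The other 89841 autosomal peaks served for comparison. The members were chosen by the position of peaks called on the hMeDIP signal. Their spacing, width, score, ratio to input and surroundings therefore come from the same library as the rule, and are given as descriptions with no test.

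The DNA came from kidneys of male C57BL/6 mice aged 6 weeks. The sources used here do not give the number of animals, or how the many cell types of the organ contributed. One library was made by hydroxymethylated DNA immunoprecipitation (hMeDIP) with a 5hmC antibody from Active Motif, and the other is input DNA without antibody. They held 11424027 and 8316507 fragments. With 1 library per group no difference below has a replicate check. All intervals are 95% intervals for counting error only. The labels name no molecular identifiers, so repeated reads may come from the same molecule.

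5hmC is made when TET enzymes oxidise 5-methylcytosine, the methylated base found mostly at CpG sites in mammalian DNA. It can be an intermediate of demethylation or a lasting mark, and in differentiated tissues such as kidney it is known to gather in the bodies of active genes and at enhancers. No gene annotation of the mm9 build was used here, so isolated peaks are given by position on mm9 (1-based), without genes or sequence.

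Isolated peaks stood in long stretches without other peaks. Their nearest neighbour was a median of 91535.5 bp away, with quartiles of 64761 and 164138 bp, and the stretch between both neighbours had a median of 335 kb. The nearest neighbour lay beyond 100 kb for 1134 of them, beyond 200 kb for 481, beyond 500 kb for 123 and beyond 1 Mb for 36. Isolated peaks often followed one another, since 1690 of 2478 (68.2%) had an isolated peak as a direct neighbour, in runs of up to 11. The other 788 stood between peaks that were not isolated. A further 9171 autosomal peaks had only 1 neighbour within 50 kb, and so bordered an empty stretch on 1 side.

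Every autosome carried isolated peaks, and their number per Mb varied less than that of all peaks. There were 0.767 isolated peaks per Mb on chromosome 14 and 1.19 on chromosome 1, the lowest and the highest value, with a median of 1.01. All autosomal peaks together ran from 27.4 per Mb on chromosome 3 to 55.0 on chromosome 11. The share of isolated peaks was therefore highest where peaks were sparse, at 4.28% on chromosome 3 and 4.23% on chromosome 1, and lowest at 1.63% on chromosome 19 and 1.64% on chromosome 11. Over the 19 autosomes, Spearman's rho between peaks per Mb and this share was -0.86, in values that share the same peak counts. The first of 10 equal parts of each chromosome, next to the centromere, held 8.03% of the isolated peaks and 4.33% of the others. Both shares lay below that of an even spread over the 10 parts.

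Isolated peaks were narrower and had lower scores than other peaks. Their median width was 875 bp with quartiles of 710 and 1094 bp, against 1163 bp with quartiles of 881 and 1568 bp for the others. Widths of 2 kb or more occurred in 27 isolated peaks (1.09%), against 13.8% of the others, and no isolated peak reached 5 kb, against 561 others. The widest had 3658 bp. The authors' score, which starts at 50 in the list and is used here only to rank peaks within it, had a median of 69.7 in isolated and 86.6 in other peaks. Scores under 60 made up 31.0% of isolated and 19.4% of other peaks. Other peaks most like isolated ones had scores near theirs. The median score was 70.7 at 20 to 50 kb from the nearest peak, and 72.8 where only 1 neighbour lay beyond 50 kb. Width moved with isolation within the members too. Its median was 899 bp at 50 to 100 kb from the nearest peak, 875 bp at 100 to 200 kb, 831 bp at 200 to 500 kb and 710 bp beyond 500 kb. Among peaks within 50 kb of a neighbour the median was 1095 bp at distances up to 2 kb, 1310 bp at 2 to 5 kb, and 956 bp at 20 to 50 kb.

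The enrichment inside isolated peaks was close to that of other peaks. A ratio here is the share of a library's fragments that fall in a region, hMeDIP over input, so that 1 is the genome mean of these libraries and not a fixed amount of 5hmC. Pooled over the isolated peaks, 56718 hMeDIP and 7998 input fragments gave a ratio of 5.16 (5.04 to 5.29), against 5.28 (5.26 to 5.29) for the others. The isolated value divided by the other was 0.979 (0.956 to 1.002). For peaks beyond 100 kb it was 1.002 (0.967 to 1.04), and when fragments were counted by any overlap of 1 bp it was 0.869 (0.852 to 0.887). The median fragment number of an isolated peak was 20 in hMeDIP and 3 in input, and that of other peaks 27 and 4, so a single ratio is imprecise. With a pseudocount of 1 fragment per library the median fold was 4.13 (quartiles 3.28 and 5.82) in isolated and 4.37 (3.40 and 5.97) in other peaks. For 2363 isolated peaks (95.4%) the whole interval was above 1. Over all autosomal peaks this share was 97.8%, and it is fixed in part by the peak calling, so nothing is read from it.

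Set beside other peaks of the same width, isolated peaks had a slightly lower ratio in each class from 500 to 3000 bp. At 750 to 1000 bp, the class with the most isolated peaks (874), the ratio was 5.41 (5.18 to 5.65) against 5.62 (5.58 to 5.67), with overlapping intervals. At 500 to 750 bp it was 6.09 (5.75 to 6.46) against 6.46 (6.36 to 6.57), which also overlap, and at 1500 to 2000 bp 4.48 (4.14 to 4.86) against 4.94 (4.90 to 4.97), which do not. Below 500 bp both were alike, at 6.64 (5.71 to 7.76) and 6.59 (6.29 to 6.92). Beside other peaks of the same score the order turned. At scores of 80 to 120 the isolated ratio was 5.58 (5.33 to 5.84) against 4.90 (4.87 to 4.93), where isolated peaks had a median width of 942 bp and the others 1188 bp. At 200 to 400 it was 7.81 (6.88 to 8.90) against 6.33 (6.28 to 6.38). The order of isolated and other peaks thus differed between classes of equal width and classes of equal score.

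The surroundings differed far more than the peaks. Between 10 and 50 kb from the midpoint, outside all peaks, the ratio was 0.645 (0.643 to 0.647) around isolated peaks and 1.11 (1.11 to 1.11) around the others. Isolated peaks thus stood 8.002-fold (7.81 to 8.19) above their own flanks, and other peaks 4.76-fold (4.74 to 4.78). Measured for each peak alone, the flank ratio of isolated peaks had a median of 0.626, a 5th percentile of 0.301 and a 95th of 1.01, whereas the median for other peaks was 1.34. Among the 2475 isolated peaks with at least 50 input fragments in the flank, its interval lay below 1 in 2044 (82.6%) and above 1 in 33 (1.33%). For the 89762 other peaks with as much input these shares were 5.57% and 71.4%. Because a flank without called peaks is what the rule selects, a low flank ratio is partly set by the choice of members. Autosomal peaks held 28.3% of hMeDIP and 5.36% of input fragments, so sequence outside peaks as a whole lies below 1. Scaling to fragments outside peaks multiplies every ratio by 1.32. The flank ratio of isolated peaks, with all fragments counted, was then 0.852 (0.849 to 0.855). Flanks below and above 1 were not counted on that scale.

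Flank and peak did not move together as distance grew. The flank ratio fell from 0.742 (0.739 to 0.746) for peaks 50 to 100 kb from their nearest neighbour to 0.600 (0.596 to 0.604) at 100 to 200 kb, 0.465 (0.461 to 0.470) at 200 to 500 kb and 0.379 (0.372 to 0.386) beyond 500 kb. In the peaks themselves the ratio was 5.07 (4.91 to 5.23), 5.36 (5.12 to 5.62), 5.08 (4.77 to 5.40) and 5.55 (4.94 to 6.25) in the same classes. Intervals of neighbouring classes overlapped there and showed no order. The peak therefore stood 6.83-fold above its flank in the nearest of these classes and 14.7-fold (13.0 to 16.5) in the farthest. Across the 2478 isolated peaks Spearman's rho of the flank ratio was -0.05 with the fold and 0.22 with the width, over values from the same libraries.

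**Figure D1:**
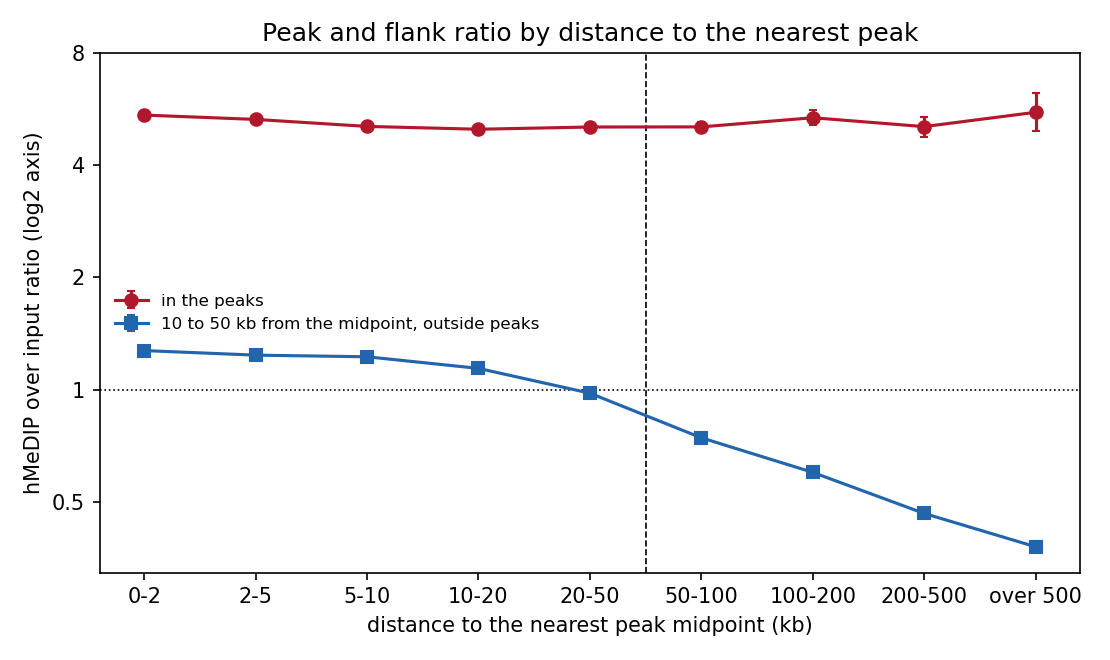
Pooled hMeDIP over input ratio (log2 axis) in peaks (circles) and 10 to 50 kb from their midpoints outside all peaks (squares), by distance to the nearest peak midpoint in kb, with 95% counting intervals. Peaks right of the dashed line are isolated. The peak ratio stays between 4.99 and 5.55 while the flank ratio falls from 1.27 to 0.379.

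The decay next to isolated peaks was steep and then shallow. Values within 500 bp include the offset between strands that is given below. From the midpoint outwards the ratio was 6.70 (6.49 to 6.92) within 250 bp, 2.59 (2.51 to 2.69) at 250 to 500 bp and 0.926 (0.901 to 0.952) at 500 to 1000 bp. It went on to 0.850 (0.833 to 0.867) at 1 to 2 kb, 0.746 (0.737 to 0.755) at 2 to 5 kb, 0.684 (0.677 to 0.690) at 5 to 10 kb, 0.656 (0.651 to 0.660) at 10 to 20 kb and 0.643 (0.640 to 0.645) at 20 to 50 kb. Each of these intervals, with all fragments counted, lay below the one before it. With fragments in peaks left out, the ratio was 0.707 (0.685 to 0.729) at 500 to 1000 bp. It was then higher at 1 to 2 kb, at 0.846 (0.829 to 0.863), so outside peaks the fall was not step by step. Peak calls on the same signal decide which fragments are left out, so this low step is set in part by the calls. Other peaks began at a like level, 6.60 (6.57 to 6.64), but were at 2.46 (2.45 to 2.47) at 500 to 1000 bp and 1.58 (1.57 to 1.58) at 20 to 50 kb, in windows that hold further peaks. With the fragments in peaks left out they were at 1.36 (1.36 to 1.37) at 2 to 5 kb and 1.12 (1.12 to 1.12) at 20 to 50 kb. Around isolated peaks the left and right sides were alike, at 0.746 and 0.746 for 2 to 5 kb and 0.646 and 0.646 for 10 to 50 kb.

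**Figure D2:**
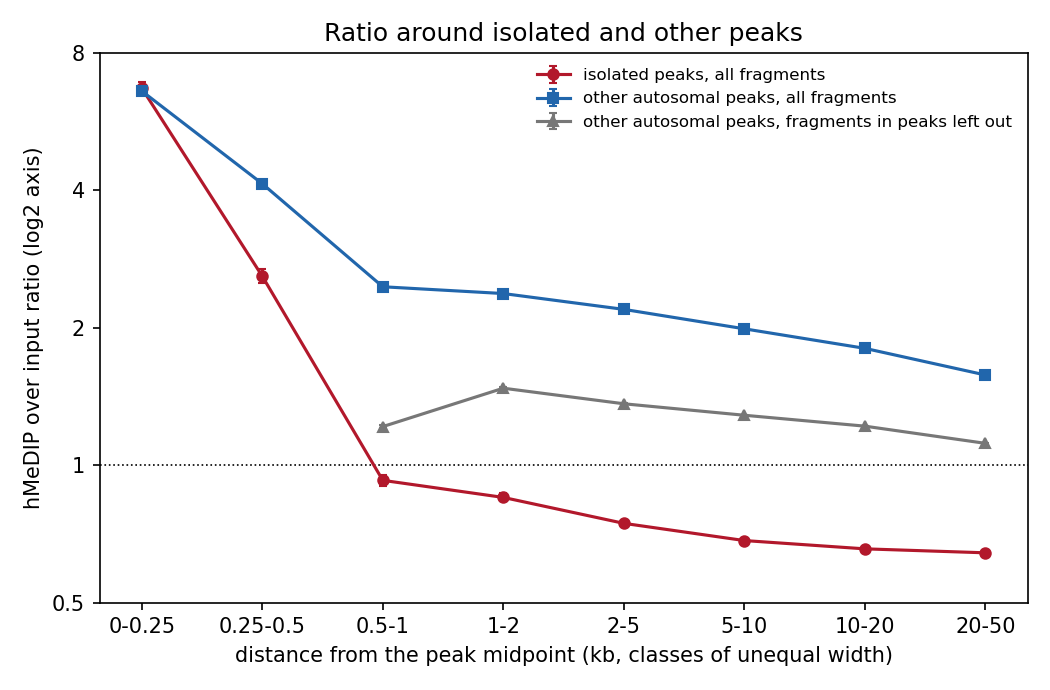
Pooled hMeDIP over input ratio (log2 axis) by distance from the peak midpoint in kb, with 95% counting intervals, for isolated peaks (circles), other autosomal peaks (squares) and other peaks with fragments in peaks left out (triangles). Each fragment counts once per class. Isolated peaks, with all fragments counted, fall from 6.70 at the midpoint to 0.926 at 0.5 to 1 kb and 0.643 at 20 to 50 kb.

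In fragments per kb the isolated peak was as high as the other and stood on less. In the central 100 bp on either side, hMeDIP density was 35.3 fragments per kb in isolated and 33.4 in other peaks, over flank densities of 3.20 and 5.60. The density fell to the midpoint between centre and flank level at 275 bp from the midpoint in isolated peaks and at 373 bp in others. The flank level leaves out fragments in peaks, whereas the falling density includes those of neighbouring peaks. Other peaks were also wider, so these 2 distances are not fully alike in measure. In isolated peaks, hMeDIP fragments of the plus strand lay a mean of 76.6 bp from the peak midpoint, and those of the minus strand -76.1 bp. This offset between strands was 153 bp, and 160 bp in other peaks, against -6.45 and 6.96 bp in the input. Fragments have a set length of 350 bp. Distances and densities within 500 bp include this offset and are not read as the shape of the mark. Input density was nearly flat, at 3.46 fragments per kb inside isolated peaks and 3.61 in their flanks, against 3.56 and 3.68 for other peaks. Input of more than 3 times the flank density occurred in 8 isolated peaks (0.323%) and in 40 others (0.0445%). Measured from the peak edge instead, the first 250 bp beside an isolated peak had a ratio of 0.491 (0.468 to 0.515), lower than at 20 to 50 kb. It was 0.787 (0.755 to 0.819) at 250 to 500 bp and 0.854 (0.830 to 0.878) at 500 to 1000 bp. Other peaks had the same dip outside peaks, at 0.963 (0.956 to 0.969) in the first 250 bp and 1.47 (1.46 to 1.48) in the next. The edges were set by peak calls on the hMeDIP signal. A low ratio just beside them is thus set in part by the calls, and nothing is read from it.

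**Figure D3:**
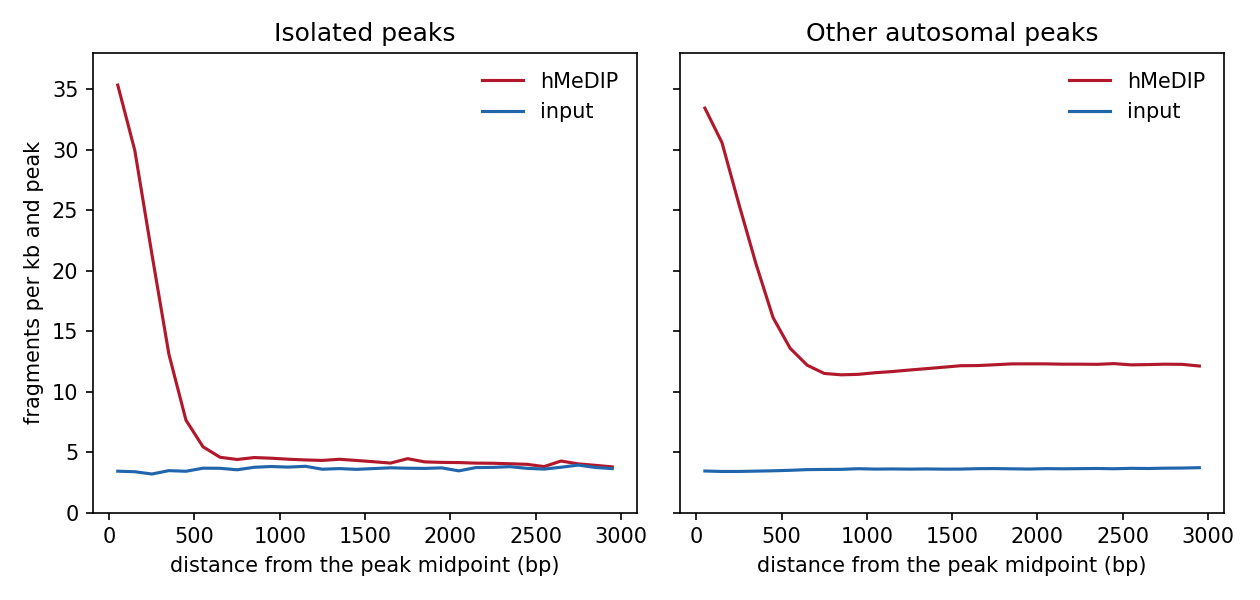
Fragments per kb and peak in 100 bp steps of distance from the peak midpoint in bp, both sides summed, for hMeDIP and input; isolated peaks on the left, other autosomal peaks on the right. The hMeDIP curves start at 35.3 and 33.4 fragments per kb. The curve of isolated peaks comes close to the input curve within 3 kb, and that of other peaks stays above it; the libraries are not scaled to each other here.

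Most isolated peaks held more hMeDIP fragments than any stretch of equal length nearby. The rule fixes this in part, since it chose flanks without a called peak. The central 1 kb of an isolated peak held a median of 20 hMeDIP fragments. The densest of the 96 steps of 1 kb between 2 and 50 kb away held a median of 14. In 2066 peaks (83.4%) the centre held more than every one of these steps, and in the remaining 412 some step reached or passed it. The count was not made for other peaks, so nothing particular to isolated peaks is read from it.

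In 100 kb bins of the autosomes, isolated peaks were over-represented in bins of middle ratio and rare in high ones. Their share in low bins was near that of the bins themselves. A bin was called low or high where its log2 ratio passed 0.5 in size with an interval excluding 0. Low bins were 47.9% of all tested bins, and held 1273 isolated peaks, or 51.4% (49.4 to 53.4), against 0.823% of other peaks. High bins were 22.9% of bins and held 17 isolated peaks (0.686%), against 78.7% of the others. Bins between low and high were 29.25% of bins and held 47.9% of the isolated peaks, against 20.5% of the others. High bins held 13.2 peaks each on average, and a bin with an isolated peak has room for few others. The rule thus sets much of the small count of isolated peaks in high bins. Scaled to the fragments outside peaks, which multiplies every ratio by 1.32, low bins were 37.7% and high bins 35.4% of all, and held 24.4% and 8.84% of the isolated peaks. Bins between were then 26.9% of all and held 66.7% (64.8 to 68.5). Low bins thus held fewer isolated peaks than their share of bins on this scale. Read from the side of the bins without this scaling, the 11209 low bins held 2012 peaks, of which 63.3% (61.1 to 65.4) were isolated. No peak at all was held by 9530 low bins.

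The ratios of isolated peaks in low and middle bins had overlapping intervals. Their flanks make up much of the bin that is called, so the flank values by bin are largely set by the call. In low bins the ratio was 5.32 (5.14 to 5.50) inside the 1273 isolated peaks and 0.490 (0.488 to 0.493) in their flanks. In the bins between low and high it was 5.02 (4.86 to 5.19) inside 1186 isolated peaks and 0.803 (0.7996 to 0.807) in their flanks. The 739 other peaks in low bins had a ratio of 5.27 (5.04 to 5.51) and a median width of 847 bp, close to the 826 bp of isolated peaks there.

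Fragments mostly from 1 strand were more frequent in isolated peaks than in other peaks as a whole, and about as frequent in other peaks of low bins. This measure was chosen after the data were seen. The rule did not use strands, but the fragments are those the peaks were called on. As a whole each library was balanced, with 50.02% of hMeDIP fragments on the plus strand. In a single peak the hMeDIP fragments were often mostly from 1 strand. A peak was called one-strand where its plus share was under 25% or over 75% with an exact binomial interval that excluded 50%. Over all autosomal peaks 10.2% were called. Of the isolated peaks 609 were called, or 24.6% (22.9 to 26.3), of which 315 were mostly plus and 294 mostly minus, against 9.81% (9.62 to 10.01) of other peaks. The difference was 14.8 percentage points (13.1 to 16.5), an interval that treats peaks as independent and holds for these libraries only. The middle 90% of plus shares ran from 15.4% to 85.7% in isolated and from 24.0% to 76.0% in other peaks.

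**Figure D4:**
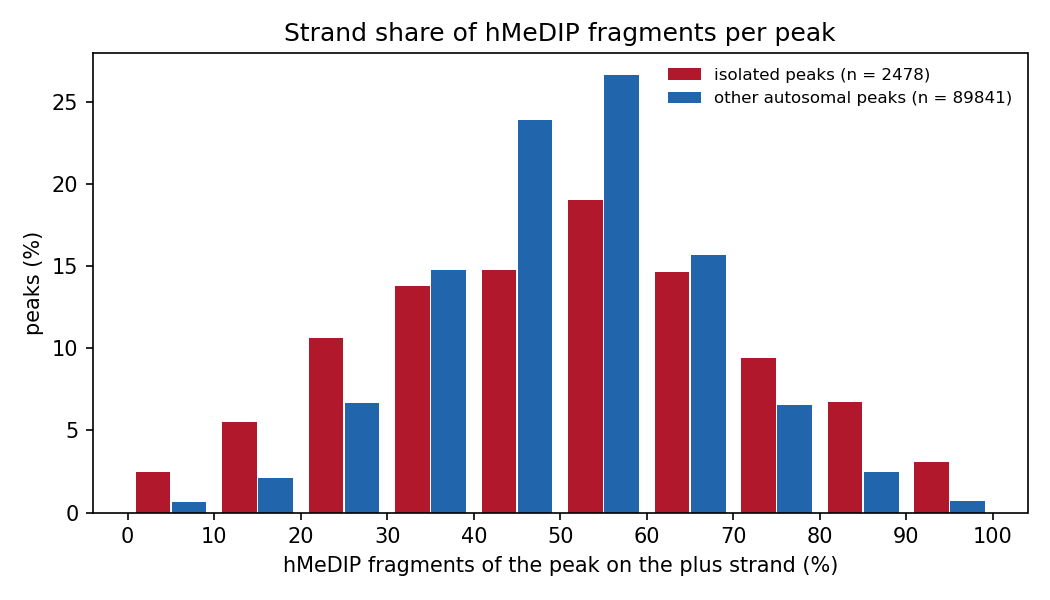
Share of peaks (%) by the percentage of their hMeDIP fragments on the plus strand, in steps of 10 points, for isolated and other autosomal peaks. Isolated peaks are more frequent in every step below 30% and from 70% upwards.

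The difference was also present among peaks of like fragment number, which limits how far a share can stray. Among peaks with 15 to under 20 hMeDIP fragments 28.8% (25.8 to 32.1) of isolated and 17.0% (16.4 to 17.6) of other peaks were one-strand. Among those with 30 to under 50 the values were 18.9% (14.98 to 23.2) and 6.48% (6.18 to 6.79). At widths of 750 to 1000 bp they were 26.9% (24.0 to 29.96) and 14.6% (14.1 to 15.1). Among scores of 200 to 400, where one-strand peaks were 3.14% (2.79 to 3.53) of the others, they were still 27.3% (16.1 to 41.0) of the 55 isolated peaks. By distance to the nearest peak the share was 9.39% (9.04 to 9.74) up to 2 kb and 7.67% (7.401 to 7.94) at 2 to 5 kb, and beyond that each class was higher than the one before, with 17.4% (16.3 to 18.5) at 20 to 50 kb, 22.6% (20.4 to 24.95) at 50 to 100 kb and 35.0% (26.6 to 44.1) beyond 500 kb. The intervals of the classes from 100 kb upwards overlapped. The share also moved with the bin. In low bins 29.5% (27.0 to 32.1) of isolated and 25.8% (22.7 to 29.2) of other peaks were one-strand, with overlapping intervals. In bins between low and high they were 19.2% (17.0 to 21.6) and 14.7% (14.2 to 15.2). The cause of the imbalance was not tested.

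**Figure D5:**
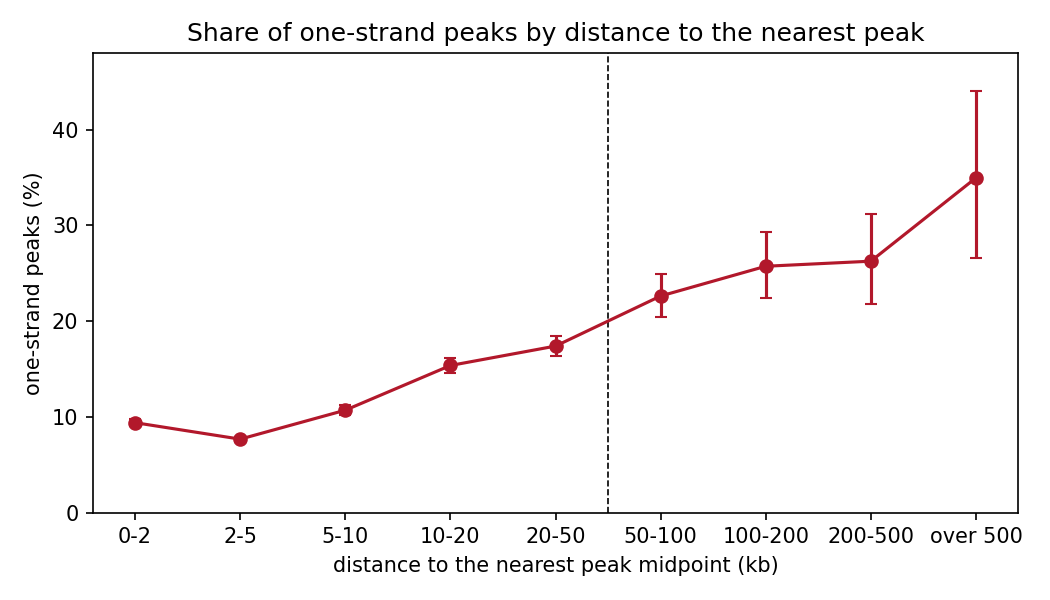
Share of one-strand peaks (%) by distance to the nearest peak midpoint in kb, with exact 95% binomial intervals; peaks right of the dashed line are isolated. The share is 7.67% at 2 to 5 kb and 35.0% beyond 500 kb.

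In one-strand isolated peaks the ratio to input was high mainly for fragments of 1 strand. Strand here is the one listed for each fragment, and which DNA strand carried 5hmC was not tested. Each strand was set against the same strand of the input. In the 315 mostly plus peaks the plus ratio was 10.4 (9.40 to 11.5) and the minus ratio 1.51 (1.36 to 1.68). In the 294 mostly minus peaks the minus ratio was 10.7 (9.67 to 12.0) and the plus ratio 1.72 (1.54 to 1.93). These peaks were selected on that imbalance, so its size is a description. The input of the same peaks, which was not used to select them, did not show it. Its plus share was 44.6% (41.4 to 47.9) in mostly plus and 53.9% (50.4 to 57.3) in mostly minus peaks, a small shift to the opposite strand. In their flanks from 10 to 50 kb the hMeDIP plus share was 49.9% and 49.1%. One-strand isolated peaks had a median width of 826 bp and a median score of 72.8, against 894 bp and 68.8 for the other isolated peaks, and a pooled ratio of 5.66 (5.39 to 5.96) against 5.02 (4.89 to 5.16). One-strand peaks that were not isolated had the same pattern. The plus ratio was 9.32 and the minus ratio 1.81 in the 4400 mostly plus ones. In the 4413 mostly minus ones the minus ratio was 9.43 and the plus ratio 1.83. Their input plus shares were 47.3% and 52.5%.

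Of the 5 isolated peaks with the highest scores, all above 400, 4 were one-strand (80%, 28.4 to 99.5). Among the 2658 other peaks scoring 400 or more the share was 0.828% (0.519 to 1.25), and among all autosomal peaks 10.2%. Those other peaks reach scores of 2936.71, so they are not matched to these 5. Among peaks with 50 to under 100 hMeDIP fragments, 19.2% (9.63 to 32.5) of 52 isolated and 2.16% (1.91 to 2.43) of other peaks were one-strand. Among the 20 highest isolated peaks 7 (35%) were one-strand and among the 60 highest 19 (31.7%), nearer the 24.6% of all isolated peaks. The highest score, 543.16, belonged to a peak of 1542 bp on chromosome 16, 9037400 to 9038941, with 64 plus and 13 minus hMeDIP fragments. Against 6 in the input this gave 9.34 (4.10 to 26.2). Its neighbours lay 173 kb and 115 kb away. The second, on chromosome 7, 91030335 to 91031544, was the balanced one, with 35 plus and 34 minus fragments over 3 input fragments, and its flank ratio of 1.01 (0.865 to 1.19) lay at the genome mean. The third, on chromosome 9, 89511745 to 89513537, held 88 plus and 7 minus fragments over 5 in the input, with 908 kb free on the left. The fourth, on chromosome 17, 3705130 to 3706368, held 57 plus and 6 minus fragments over 3 in the input. The fifth, on chromosome 3, 156095998 to 156097862, held 1 plus and 84 minus fragments, while its 10 input fragments were 5 plus and 5 minus. Its ratio was 6.19 (3.21 to 13.4) and its flank ratio 0.371 (0.304 to 0.451). The imbalance of these 4 peaks rests on 63 to 95 hMeDIP fragments each.

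The 5 widest isolated peaks varied in both peak and flank ratio. The widest, on chromosome 16, 23415886 to 23419543, reached 2.53 (1.58 to 4.22) from 80 hMeDIP fragments over 23. The next, of 2896 bp, was chromosome 13, 71245327 to 71248222, with a ratio of 4.30 (2.18 to 9.42). A peak of 2892 bp on chromosome 8, 71349061 to 71351952, had the highest ratio of the 5, 9.36 (4.36 to 23.9). The others were 2831 bp on chromosome 2, 25217953 to 25220783, where the ratio was 5.90 (3.05 to 12.8), and 2705 bp on chromosome 3, 28069489 to 28072193, where it was 4.37 (2.22 to 9.57). Flank ratios of the 5 ran from 0.608 to 0.956, and at most 60.5% of their fragments were on the plus strand. None of the 26 isolated peaks of 2000 to under 3000 bp was one-strand (upper bound 13.2%), against 1.64% (1.38 to 1.93) of other peaks of that width.

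The peaks with the highest lower bound of the ratio mostly had no input fragment, so the ratio itself has no upper limit. The first, on chromosome 2, 134919582 to 134920924, held 43 hMeDIP and 0 input fragments, with a lower bound of 8.13. The chromosome 12 peaks at 27849836 to 27850902 and 55169483 to 55170620 held 36 and 33 hMeDIP fragments over 0, with lower bounds of 6.75 and 6.16. The chromosome 4 peak at 15631631 to 15633111 held 62 over 2, with a ratio of 22.6 (5.99 to 190), and the chromosome 2 peak at 117605586 to 117607023 held 32 over 0, with a lower bound of 5.96. Plus shares were 8.33% and 75.8% in the chromosome 12 peaks and 24.2% in the chromosome 4 peak, all past the limits used above, and 60.5% and 40.6% in the chromosome 2 peaks. No input fragment was found in 183 isolated peaks (7.39%) and in 3.88% of the others.

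The most remote peaks were modest. The farthest from any other, on chromosome 14, 91970370 to 91971303, lay 4.06 Mb and 6.48 Mb from its neighbours. It held 24 hMeDIP fragments over 4, for 4.37 (1.501 to 17.3) in a flank of 0.254 (0.198 to 0.324). The next was on chromosome 5, 58212202 to 58213540, at 6.55 (2.02 to 33.7) in a flank of 0.625 (0.533 to 0.732). Another on chromosome 14, 83975953 to 83976476, held 14 hMeDIP fragments over 0 in the input, and one on chromosome 2, 97262258 to 97262929, held 13 over 0. The fifth, on chromosome 1, 115278765 to 115279538, had 24 over 6 and a ratio of 2.91 (1.16 to 8.71). All 5 lay in low bins. With so few fragments each of these peaks is weak on its own.

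Peaks on either side of the 50 kb limit had overlapping intervals. Just inside, the peak on chromosome 3, 100796992 to 100798621, had its nearest neighbour at 50020 bp and a ratio of 6.73 (2.42 to 26.0). One on chromosome 2, 127413748 to 127415260, had its neighbour at 50060 bp and a ratio of 6.37 (2.28 to 24.7), and one on chromosome 6, 140706224 to 140706884, at 50092 bp and 3.64 (1.03 to 19.6). Just outside, a neighbour at 49994 bp kept out the peak on chromosome 16, 29606228 to 29607009, whose ratio was 11.6 (1.81 to 488). Neighbours at 49957 and 49956 bp kept out one on chromosome 5, 33947723 to 33948524, with 4.80 (1.86 to 15.8), and one on chromosome 10, 77166331 to 77167192, with 4.37 (1.501 to 17.3). Flank ratios were 0.942 to 1.08 inside and 0.686 to 1.004 outside the limit.

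One isolated peak stood apart in the input and was singled out after its values were seen. On chromosome 12, 75904626 to 75905819, 248 hMeDIP fragments over 115 in the input gave 1.57 (1.25 to 1.98), the lowest of all isolated peaks, at the low score of 50.55. Its input density was 96.3 fragments per kb against 3.61 in the flanks of isolated peaks, and single positions held up to 21 hMeDIP and 6 input reads. Without it the pooled ratio of the isolated peaks was 5.21 (5.09 to 5.34).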

How the data were processed

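Kidney DNA was profiled as 1 hMeDIP and 1 input library. Per the submitters' processing notes, CASAVA and Bowtie 1.0.0 were used with build mm9; no alignment settings were found in the labels or headers. The deposited position files list stretches of 350 bp with a strand and a read count per position (unit: counts); each line was read as 1 fragment and assigned by its midpoint. MACS made the peak list, per the file headers, and the deposited score per peak is used as a rank only. Neither the labels nor the headers name its control, version or threshold. The header's label ends in a range of numbers, so the list may rest on more than this library; this could not be told from the sources.

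Ratios carry exact conditional binomial (Clopper-Pearson) intervals, shares exact binomial ones, and quotients of ratios and differences of shares a normal interval (on the log scale for quotients). Windows of several peaks were merged so that each fragment counted once, except in the 100 bp profile and the flank of a single peak. Bins of 100 kb needed 50 input fragments. Interval and strand calls were tested on simulated counts drawn independently, a setting without the repeated reads of these data. The members and measures were chosen with earlier results of these data known. Named peaks are the 5 isolated peaks highest in score, width, lower bound of the ratio and distance, and 3 on each side of the limit. Depth was 11424027 hMeDIP and 8316507 input fragments. Alternatives were other distances, edges, merged peaks, higher-scoring peaks, scalings, read weights, overlap, input filters, pseudocounts, flanks and bins. Python 3.11.15, numpy 2.4.6, scipy 1.17.1 and pandas 2.3.3 were used. Gene annotation, sequence context and gene lists were not analysed here, since no mm9 annotation was used.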

Additional observations from a re-analysis of the deposited data

Results flagged for a closer look

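Repeated reads per position were not used by the comparisons of ratios and stood above the input. Among the hMeDIP positions of isolated peaks 2.31% (2.19 to 2.44) carried at least 2 reads. In the input of the same peaks it was 0.725% (0.551 to 0.936). In the flanks from 10 to 50 kb the shares were 0.919% and 0.312%, and in other peaks 2.02% and 0.269%. Without the chromosome 12 peak that held the most input they were 2.13% (2.01 to 2.25) and 0.393% (0.267 to 0.558) in isolated peaks. One-strand isolated peaks had 2.82% (2.54 to 3.11) of repeated hMeDIP positions, other isolated peaks 2.16% (2.02 to 2.30). The part of repeated reads in the results was not tested.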

How the results depend on the processing

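Of the 48 alternatives run, 20 stayed within the main interval or within 1.5 times the main count. Those for strands, for the quotient of isolated over other peaks and for the peak with the most input were chosen after seeing the data. A limit of 25 kb gave 5647 isolated peaks and one of 100 kb gave 1134, with median widths of 914 and 847 bp; among the peaks scoring above the list's median 2668 peaks were isolated, with a median width of 1139 bp and, for the main members in it, a median fold of 5.10. Scaling to fragments outside peaks raised the peak ratio to 6.82, the flank ratio to 0.985 at 2 to 5 kb and 0.852 at 10 to 50 kb, and lowered the share in low bins to 24.4%. That share was 59.2% with fragments in peaks left out. Any overlap of 1 bp gave a peak ratio of 3.84 and a quotient to other peaks of 0.869; at 100 kb that quotient was 1.002, on the other side of 1 from the main 0.979, whose interval (0.956 to 1.002) includes 1. The median fold was 4.61 and 2.37 with pseudocounts of 0.5 and 5. A flank of 5 to 20 kb put peaks 7.76-fold above it, distance from the edge gave 0.727 at 2 to 5 kb, and read weights gave 0.643 at 10 to 50 kb. One-strand peaks were 16.8% with limits of 20% and 80%, 20.9% at 25 kb, 26.9% at 100 kb and 27.7% of isolated peaks scoring above the median, with an excess over other peaks of 11.3, 11.3, 16.9 and 20.8 points in the same order. Without the peak with the most input, repeated positions were 2.13%. The cause of these shifts was not tested. No paired analysis was possible because each group has 1 library. Depth limits single peaks, at a median of 3 input fragments.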
